A study of Mus musculus with 24 samples.

Results

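Leukemic granulocyte-monocyte progenitors (L-GMP) of a MOZ-TIF2 model of acute myeloid leukemia were set against normal mouse LSK cells, to describe which genes of stem cells the leukemic cells reached, lacked or exceeded. The members were chosen by sample title, as the 3 L-GMP arrays and the 3 arrays of hematopoietic stem cells, and they make up 6 of the 24 arrays of the study. The L-GMP are labelled as leukemic stem cells with the surface phenotype of a GMP, of C57BL/6 strain, with the transduction entry left as not applicable. MOZ-TIF2 joins the histone acetyltransferase MOZ (gene Kat6a) to the nuclear receptor coactivator TIF2. The LSK cells (lineage-negative, Sca-1-positive, Kit-positive) are labelled untransduced and C57BL/6, and so are the normal GMP on 4 further arrays, whose levels are given for orientation and were not tested. The labels give no age or sex of the mice, do not say how many leukemias or mice the L-GMP came from, and do not say whether replicates are separate animals, so the p-values speak only of how far these arrays vary, and that variation may be technical. The other arrays hold GMP transduced with GFP alone or with 1 of 3 fusion oncogenes, taken 36 hours after infection. The study itself compared L-GMP with normal GMP, and LSK with GMP.

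LSK cells hold the hematopoietic stem cells, which renew themselves for life and can form every blood lineage. A normal GMP is a committed progenitor that makes granulocytes and monocytes and has lost the capacity to renew itself. MOZ-TIF2 confers that capacity on GMP, so L-GMP combine the surface of a committed progenitor with the self-renewal of a stem cell, and the transcription factors, receptors and cell cycle regulators of normal stem cells are the reference they are usually read against.

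Each array measured total RNA on the Affymetrix Mouse Genome 430A 2.0 GeneChip, and all values below are the authors' GCRMA log2 expression values unless a linear scale is named. A gene was read from 1 probe set. It was tested where at least 2 L-GMP arrays or at least 2 LSK arrays read over 60 on the linear scale, which is the study's background level (log2 of 5.91). A gene under that level on every array of a group was thus tested through the other group alone, which largely set its direction. Differences are L-GMP minus LSK on the log2 scale with their standard error (SE), n = 3 arrays each, and a gene was called where limma's p adjusted over all probe sets tested (Benjamini-Hochberg) was under 0.05. A gene without a call is described as close to LSK where the 95% confidence interval of its difference stayed within 1 log2 unit of 0, and as unresolved where the interval was wider. Where every array of the lower group was under 60, the fold is a bound, written as "at least", against that level, and a log2 difference beside it or in a list's median is that of the deposited values and no measure of the change.

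Of 7120 genes tested, 1276 (17.9%) were called, of which 506 (7.11% of those tested) were higher in L-GMP and 770 (10.8%) were lower. A further 3970 (55.8%) were close to LSK and 1874 were unresolved. At probe set level 1982 of 11486 (17.3%) were called, and 3695 had an unadjusted p under 0.05. Every L-GMP array was above every LSK array for 16.9% of genes and below for 22.1%. The median difference over all genes was −0.03. Group means of L-GMP and LSK lay further apart than those of L-GMP and normal GMP, with a median absolute difference of 0.351 against 0.273 over 11808 probe sets, and 13.6% of probe sets against 7.75% more than 1 log2 unit apart. LSK and normal GMP were 0.288 apart by the same measure.

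The 3 L-GMP arrays were not alike. L-GMP 2 and L-GMP 3 correlated at 0.971 over the tested probe sets, as a description, while L-GMP 1 correlated at 0.907 and 0.884 with them, and the LSK arrays at 0.978 to 0.988 with each other. The 3′ minus 5′ signal of the Gapdh control probe sets, a sign of RNA integrity, was 4.82, 3.58 and 3.08 log2 units in L-GMP, against 4.05 to 4.51 in LSK. Without L-GMP 1, 4436 probe sets were called instead of 1982, and without LSK 1 745 were called. Part of the file names carries a shared tag, on L-GMP 1 and on LSK 1 and 2, whose meaning is not given. Counts by gene list are given below with the lowest and highest value when 1 array was left out, and fits with the tag as a block or within a tag class stand in the closing section. List counts with all arrays are to be read beside the 7.11% higher and 10.8% lower of all genes. Those without 1 array are to be read beside that fit's own count over all genes, whose range the closing section gives. A gene that no longer passed the filter without an array was not tested there. Such a gene is not named among the calls which that array ended. The part that RNA quality or L-GMP 1 itself had in a result was not tested.

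The labels were checked against markers of each cell type. The linear values of the 6 LSK markers on the array (Kit, Meis1, Mecom, Hlf, Procr and Gata2) summed to 857, 646 and 690 in L-GMP, against 6220, 5470 and 4790 in LSK and 1180 to 2290 in normal GMP, and Mecom was under 60 in both groups compared. Kit, which encodes a protein used to sort the cells, weighs heavily in the LSK sums, at log2 values of 11.75, 11.56 and 11.26. The GMP markers, led by the granule protease genes Mpo, Elane, Prtn3 and Ctsg, summed to 48500, 30600 and 26900 in L-GMP, against 13100, 16500 and 21200 in LSK and 46800 to 52200 in normal GMP. Neutrophil markers summed to 52000, 4620 and 2330 in L-GMP, against 17600, 28400 and 26400 in LSK, so L-GMP 1 was the highest of the 6 arrays and L-GMP 2 and 3 the lowest. Monocyte markers summed to 9080, 13500 and 11800 in L-GMP, against 1140, 1890 and 1580 in LSK. Erythroid markers summed to 171, 107 and 73.6 in L-GMP, against 2880, 919 and 2610 in LSK. B cell markers summed to 4100, 2940 and 3500 in L-GMP, against 2190, 2930 and 2410 in LSK, with Cd79b and Ighm over 60 on every array, Cd79a and Ms4a1 under 60 on every array, and neither Cd79b nor Ighm called. T and NK cell markers were under 60 on all 6 arrays. In such sorted samples a smaller share of cells of a type and less RNA per cell cannot be told apart.

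**Figure D1:**
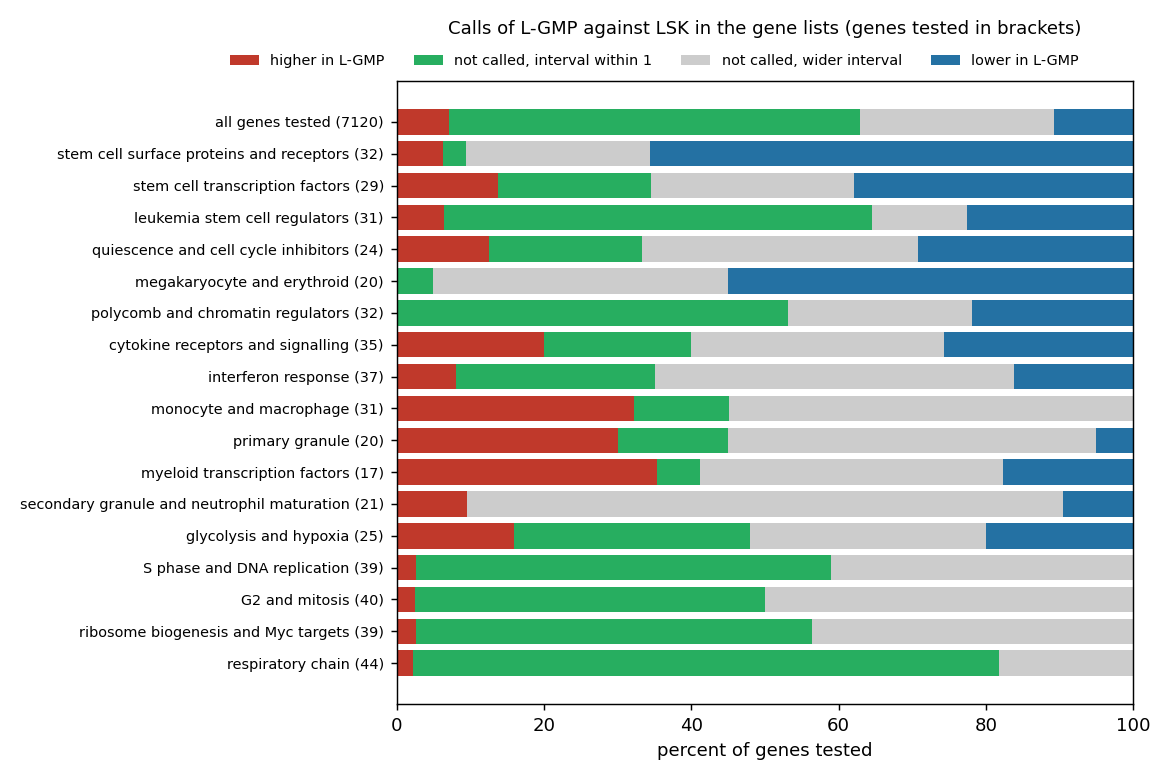
Stacked bars give the percent of tested genes called higher in L-GMP, not called with an interval within 1 log2 unit of 0, not called with a wider interval, and called lower in L-GMP, for all 7120 genes tested and for a part of the gene lists, with the number of genes tested in brackets. Stem cell surface proteins have the largest share of lower calls, 21 of 32, and the monocyte, primary granule and myeloid factor lists have more genes higher than lower.

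Transcription factors of stem cells split into those that L-GMP lacked and those that they kept. Of the list of stem cell transcription factors, 29 of 34 on the array were tested, of which 4 were higher and 11 lower in L-GMP, with 6 close to LSK and 8 unresolved and a median difference of −0.84. With 1 array left out, the higher calls numbered 2 (without any 1 of 5 arrays) to 4 (without L-GMP 1) and lower calls numbered 8 (without LSK 1) to 15 (without L-GMP 1). The most negative log2 differences were those of Hlf, Tsc22d1, Rora, Zfp521 and Gata2, which is not an order of fold where L-GMP was under background. Hlf, a bZIP factor that marks and maintains stem cells and is a fusion partner in leukemia, had log2 values of 5.68, 4.86 and 4.89 in L-GMP, against 9.99, 9.90 and 9.55 in LSK. All 3 L-GMP arrays were under the background level, at least 15-fold lower than LSK (log2 difference −4.67 ± 0.27 SE; limma, adjusted p = 7.59e-05), and normal GMP read 5.84 to 6.57. Tsc22d1, a leucine zipper protein of TGF-beta signalling, had log2 values of 6.25, 7.48 and 7.43 in L-GMP, against 10.78, 11.13 and 11.40 in LSK, a difference of −4.05 ± 0.36 (limma, adjusted p = 0.000487). The nuclear receptor gene Rora and the zinc finger gene Zfp521 were under background on every L-GMP array and above it on every LSK array, with log2 differences of −2.84 ± 0.30 (limma, adjusted p = 0.00104) and −2.59 ± 0.20 (limma, adjusted p = 0.000259), and were at least 1.7-fold and 1.85-fold lower. Gata2, a zinc finger factor that stem cells need to survive and expand, had log2 values of 7.68, 5.95 and 6.06 in L-GMP, against 9.24, 8.74 and 9.16 in LSK. The groups did not overlap and L-GMP 1 was the highest of the leukemic arrays, with a difference of −2.49 ± 0.45 (limma, adjusted p = 0.00992), and 1 of the 2 probe sets of Gata2 on the array was called.

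Lower calls with smaller log2 differences were spread over RNA-binding, chromatin and leucine zipper factors. Msi2, an RNA-binding protein that sustains stem cells, had log2 values of 4.35, 4.43 and 4.87 in L-GMP, against 6.87, 6.44 and 6.76 in LSK. Mllt3, a reader of histone acylation and a partner of MLL in fusions, had log2 values of 4.39, 4.13 and 3.89 in L-GMP, against 6.09, 6.03 and 5.47 in LSK. Both were under background on every L-GMP array and called lower, Msi2 at least 1.72-fold (limma, adjusted p = 0.000908), while the LSK mean of Mllt3 was itself under background, so that no fold can be bounded (limma, adjusted p = 0.00334). Hmga2, an architectural chromatin protein active in fetal stem cells, and the erythroid and platelet repressor Gfi1b were also under background in L-GMP, at least 2.2-fold (limma, adjusted p = 0.0024) and 1.41-fold (limma, adjusted p = 0.0218) lower. Nfe2, the large subunit of an erythroid and megakaryocytic bZIP dimer, fell by 0.84 ± 0.21 (limma, adjusted p = 0.0318). Omission of 1 array ended the call of Gfi1b (L-GMP 2 or L-GMP 3) and Nfe2 (L-GMP 2, LSK 1 or LSK 2). Mllt3 left the test without LSK 1 or LSK 2.

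Meis1, the homeodomain cofactor of HOX proteins that stem cells and many leukemias depend on, stood between the normal populations. Its log2 values were 7.97, 8.26 and 8.18 in L-GMP, against 9.49, 9.13 and 9.20 in LSK and 5.09 to 6.58 in normal GMP. All L-GMP arrays were below all LSK arrays and above all GMP arrays, and the difference from LSK was −1.14 ± 0.19 (limma, adjusted p = 0.00674), with a 95% interval of −1.57 to −0.70. Flt3 and Mef2c, 2 genes often active in the same leukemias, are described with the receptors and the leukemia regulators below.

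A second set of stem cell factors was close to LSK in L-GMP. Lmo2, a bridging protein that assembles the SCL complex, had log2 values of 11.87, 11.82 and 12.17 in L-GMP, against 11.99, 12.01 and 11.96 in LSK, and normal GMP read 10.44 to 10.97. Its difference from LSK was −0.04 ± 0.18, with a 95% interval of −0.45 to 0.37. The homeobox gene Hhex had log2 values of 9.51, 9.80 and 9.74 in L-GMP, against 9.67, 9.60 and 9.62 in LSK and 7.95 to 8.67 in normal GMP, a difference from LSK of 0.06 ± 0.17 (95% interval −0.34 to 0.45). For both genes every L-GMP and LSK array was above every normal GMP array. Sox4, an HMG box factor that cooperates in myeloid leukemia, had log2 values of 8.82, 10.11 and 10.12 in L-GMP, against 9.61, 9.70 and 9.91 in LSK and 7.36 to 8.34 in normal GMP. L-GMP 1 was the lowest and L-GMP 2 and 3 the highest of the 6 arrays for Sox4, so its difference of −0.05 ± 0.36 (95% interval −0.89 to 0.78) joins unlike arrays. Without L-GMP 1 the Sox4 difference was 0.38 (limma, adjusted p = 0.0975).

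The ETS factor genes Erg and Etv6 and the proto-oncogene Myb, which drives progenitor proliferation, were also close to LSK, with differences of −0.15 ± 0.24, −0.02 ± 0.20 and −0.10 ± 0.18. Erg had log2 values of 6.44, 6.40 and 6.68 in L-GMP, against 6.60, 6.28 and 7.08 in LSK, and the 2 groups overlapped. Bmi1, the polycomb protein that represses the Cdkn2a locus in stem cells, had log2 values of 8.79, 9.09 and 9.04 in L-GMP, against 8.93, 9.01 and 9.12 in LSK on the probe set used, a difference of −0.05 ± 0.18 (95% interval −0.46 to 0.36), against 7.41 to 8.59 in normal GMP. The other Bmi1 probe set was lower in L-GMP, with a log2 difference of −1.07 ± 0.20 (limma, adjusted p = 0.0118), so the 2 probe sets of the gene disagree. Factors left unresolved included Egr1, Tal1, Bcl11a and Fli1. Bcl11a had log2 values of 5.13, 8.23 and 7.82 in L-GMP, against 9.35, 9.12 and 8.79 in LSK, and L-GMP 1 alone was far below the rest, at a difference of −2.03 ± 0.73 with an interval of −3.74 to −0.32. Tal1, the partner of Lmo2 in the SCL complex, had log2 values of 7.99, 8.97 and 8.87 in L-GMP, against 9.72, 9.21 and 9.45 in LSK, with the groups apart and a difference of −0.85 ± 0.30 (limma, adjusted p = 0.0905).

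Of the 4 factor genes higher in L-GMP, Nkx2-3 had the clearest difference. Nkx2-3, a homeobox gene known from spleen and gut vasculature, had log2 values of 7.46, 8.05 and 7.93 in L-GMP, against 5.93, 6.37 and 5.88 in LSK and 5.01 to 6.07 in normal GMP. Every L-GMP array exceeded every LSK and GMP array, with a difference from LSK of 1.75 ± 0.23 (limma, adjusted p = 0.00292). Lyl1, a bHLH factor related to Tal1, had log2 values of 10.67, 10.62 and 10.92 in L-GMP, against 10.10, 10.20 and 9.88 in LSK, a difference of 0.67 ± 0.18 (limma, adjusted p = 0.044). Runx1, the core binding factor subunit that starts definitive hematopoiesis, differed by 0.61 ± 0.17 (limma, adjusted p = 0.049), with 2 of its 3 tested probe sets called. Calls that 1 omitted array ended were those of Lyl1 and Runx1 (L-GMP 2, L-GMP 3, LSK 1, LSK 2 or LSK 3).

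The remaining gene, Mycn, cannot be given a direction. On the probe set used its log2 values were 9.46, 9.60 and 9.85 in L-GMP, against 6.77, 7.16 and 6.43 in LSK, a difference of 2.85 ± 0.24 (limma, adjusted p = 0.000346). That probe set read 9.91 to 13.65 on all 14 arrays of transduced GMP, those with GFP alone included, and 6.43 to 7.80 on the 7 arrays of freshly sorted LSK and GMP. The other probe set of Mycn had log2 values of 3.85, 3.41 and 3.34 in L-GMP, against 7.71, 7.19 and 7.00 in LSK, a difference of −3.77 ± 0.25 (limma, adjusted p = 0.000131). The probe sets were thus called in opposite directions, and Mycn counts among the 4 higher factors only through the one with the higher mean.

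**Figure D2:**
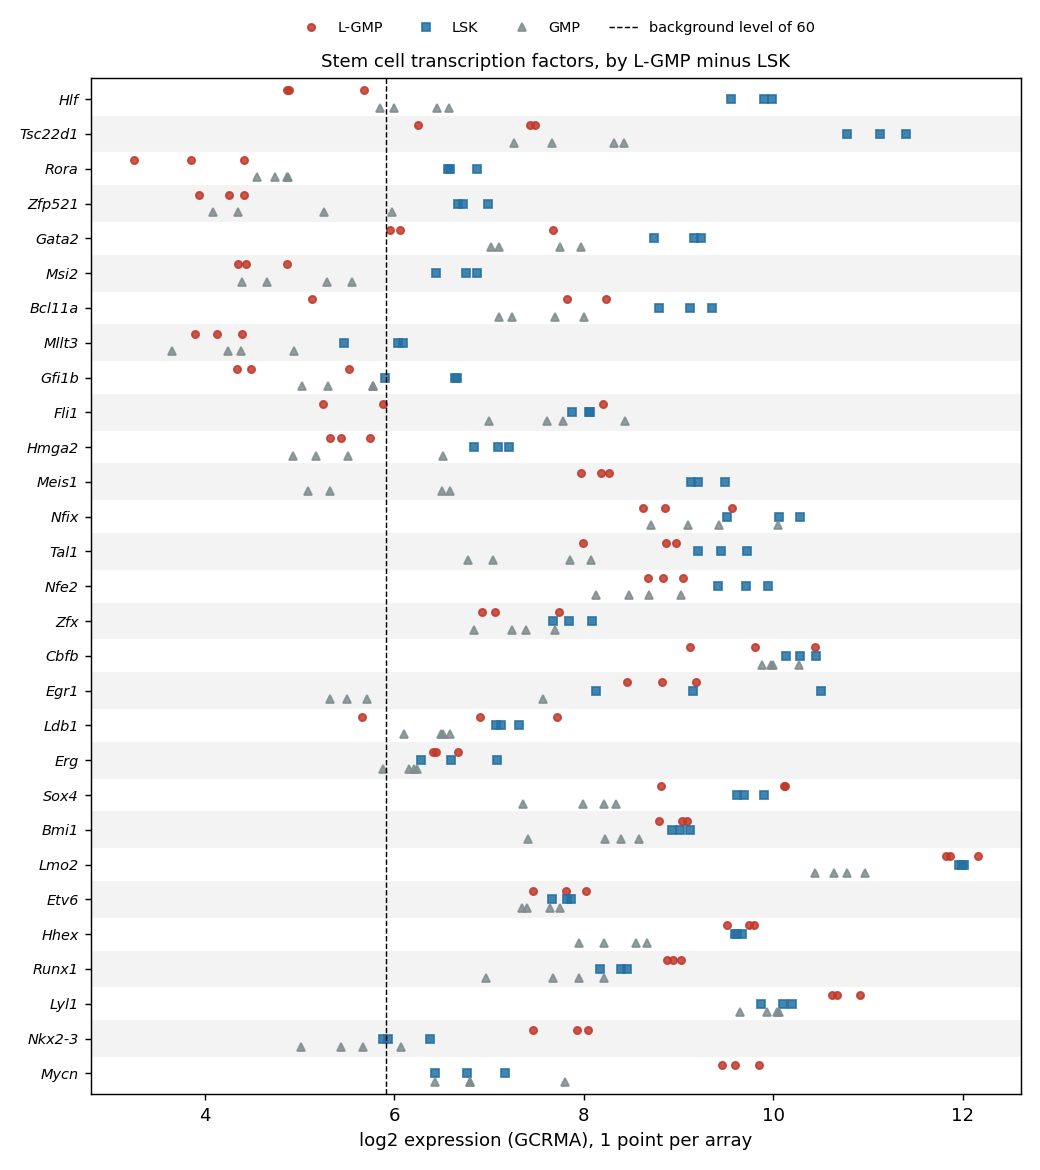
Log2 expression of the 29 tested stem cell transcription factors, ordered by the L-GMP minus LSK difference, with 1 point per array for L-GMP, LSK and normal GMP and a dashed line at the background level of 60. Hlf and Gata2 of L-GMP lie left of LSK, Lmo2 and Hhex of L-GMP lie with LSK and right of normal GMP, and Meis1 of L-GMP lies between LSK and normal GMP.

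The Hox genes of the A cluster, which keep stem cells and MLL or MOZ leukemias renewing, had no call on the probe sets used. In the Hox cluster genes and cofactors list, 9 genes were tested of 25 on the array, of which 1 was higher and 2 lower in L-GMP, with 4 close to LSK and 2 unresolved and a median difference of −0.03. When 1 array at a time was left out, the higher calls numbered 0 (without LSK 1 or LSK 2 or LSK 3) to 2 (without L-GMP 1) and lower calls numbered 1 (without any 1 of 4 arrays) to 3 (without L-GMP 1). Hoxa9 had log2 values of 12.07, 11.82 and 11.97 in L-GMP, against 11.36, 11.71 and 11.38 in LSK and 8.59 to 9.67 in normal GMP. Each L-GMP array was above each LSK array, and both groups were above normal GMP, but the difference from LSK of 0.47 ± 0.18 (95% interval 0.04 to 0.90) was not called (limma, adjusted p = 0.123). A second Hoxa9 probe set was called higher, with a difference of 0.80 ± 0.22 (limma, adjusted p = 0.0443). Hoxa7 had log2 values of 7.81, 8.35 and 7.63 in L-GMP, against 7.34, 7.36 and 7.12 in LSK, also apart, with a difference of 0.66 ± 0.23 (limma, adjusted p = 0.091). Hoxa5 had log2 values of 8.99, 7.40 and 6.78 in L-GMP, against 7.72, 8.11 and 7.78 in LSK, with L-GMP 1 above and L-GMP 2 and 3 below every LSK array. Hoxa10 was not tested, with log2 values of 6.40, 5.67 and 4.73 in L-GMP, against 4.12, 4.26 and 4.12 in LSK. All L-GMP values of Hoxa10 were above those of LSK, and 1 of the 6 was over background.

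Of the other members, Hoxb4, a homeobox gene that expands stem cells when forced, had log2 values of 5.87, 6.31 and 6.34 in L-GMP, against 6.87, 7.07 and 7.06 in LSK. It fell by 0.83 ± 0.20 on the log2 scale (limma, adjusted p = 0.028), while normal GMP read 6.39 to 7.19. Pbx3, a TALE cofactor of HOXA9, had log2 values of 6.17, 6.11 and 6.32 in L-GMP, against 5.53, 5.34 and 5.31 in LSK and was at least 1.23-fold higher in L-GMP (log2 difference 0.81 ± 0.17 SE; limma, adjusted p = 0.0174), with LSK under background. The related cofactor Pbx2 was close to LSK, with a difference of −0.03 ± 0.19. The call was lost for Hoxb4 without L-GMP 2, LSK 1, LSK 2 or LSK 3 and Pbx3 without LSK 1, LSK 2 or LSK 3.

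Surface proteins and receptors of stem cells had the largest share of lower calls of all lists. For the stem cell surface proteins and receptors list, 32 of 47 genes on the array were tested, of which 2 were higher and 21 lower in L-GMP, with 1 close to LSK and 8 unresolved and a median difference of −1.86. Over the 6 fits with 1 array left out, the higher calls numbered 0 (without LSK 2) to 4 (without L-GMP 1) and lower calls numbered 11 (without LSK 1) to 23 (without L-GMP 1). Kit and Cd34 are among those lower, but they encode proteins used to sort the cells and their values are no finding. Procr, the endothelial protein C receptor (EPCR) that marks long-term stem cells, had log2 values of 3.72, 3.56 and 4.35 in L-GMP, against 8.68, 8.91 and 8.71 in LSK. It was under background in L-GMP and in normal GMP and at least 7.26-fold lower than in LSK (log2 difference −4.89 ± 0.24 SE; limma, adjusted p = 4.91e-05). Adgrl4, an adhesion G protein-coupled receptor, had log2 values of 6.46, 4.70 and 5.75 in L-GMP, against 10.54, 10.44 and 10.16 in LSK. Its relative Adgrg1 (GPR56) had log2 values of 6.37, 5.84 and 6.64 in L-GMP, against 9.77, 9.60 and 9.38 in LSK. Both receptors were also higher in normal GMP than in L-GMP on every array, at 7.57 to 8.48 and 7.55 to 8.26. Their differences from LSK were −4.74 ± 0.41 (limma, adjusted p = 0.000471) and −3.30 ± 0.25 (limma, adjusted p = 0.000227).

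Ligand and enzyme genes of the same list were lower as well. Angpt1, the TIE2 ligand that LSK cells themselves make, had log2 values of 4.38, 3.83 and 4.33 in L-GMP, against 7.05, 7.05 and 7.93 in LSK and was at least 2.71-fold lower (log2 difference −3.16 ± 0.29 SE; limma, adjusted p = 0.000591). Ltb, the membrane-bound lymphotoxin beta, had log2 values of 6.97, 5.97 and 5.05 in L-GMP, against 9.28, 9.38 and 9.31 in LSK, a difference of −3.33 ± 0.43 (limma, adjusted p = 0.0026). Tgm2, a protein crosslinking enzyme, fell by 2.58 ± 0.53 (limma, adjusted p = 0.0157), with 3 of its 4 tested probe sets called. The values of Ltb and Tgm2 were highest on L-GMP 1 among the leukemic arrays.

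Among the remaining membrane proteins, the tetraspanning Tmem176b had log2 values of 7.31, 8.22 and 9.01 in L-GMP, against 12.35, 12.18 and 11.84 in LSK and 10.18 to 11.19 in normal GMP. The interferon-inducible Ifitm1 had log2 values of 5.68, 8.80 and 7.83 in L-GMP, against 11.37, 11.24 and 11.20 in LSK. No L-GMP array reached an LSK array for either gene, and the differences were −3.94 ± 0.41 (limma, adjusted p = 0.00096) and −3.83 ± 0.69 (limma, adjusted p = 0.00965). Calcrl, a receptor of adrenomedullin, fell by 2.49 ± 0.25 (limma, adjusted p = 0.000889), Pdzk1ip1 (MAP17) by 2.04 ± 0.30 (limma, adjusted p = 0.00434) and the costimulatory receptor Cd27 by 2.00 ± 0.42 (limma, adjusted p = 0.0166). The endothelial adhesion genes Esam and Robo4, both used as stem cell markers, were under background on every L-GMP array and called lower (limma, adjusted p = 0.00286 and 0.00745), Esam at least 1.7-fold, while LSK lay near background for Robo4. Slamf1 (CD150), the SLAM receptor that separates long-term stem cells, lay near background in both groups, with log2 values of 5.21, 4.88 and 4.56 in L-GMP, against 5.91, 5.56 and 5.91 in LSK, and was called lower (limma, adjusted p = 0.0311) with no fold to be bounded. Cd93, a receptor shared by stem cells and myeloid cells, was close to LSK, with a difference of −0.14 ± 0.17 (95% interval −0.53 to 0.26).

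Cxcr4 and Ctsf were the genes of the list higher in L-GMP. Cxcr4, the CXCL12 receptor that holds stem cells in the marrow, had log2 values of 9.52, 9.41 and 9.13 in L-GMP, against 8.34, 8.49 and 8.40 in LSK and 7.86 to 9.31 in normal GMP. L-GMP was above LSK on every array, by 0.95 ± 0.18 (limma, adjusted p = 0.0121). Ctsf, a cysteine protease, differed by 1.43 ± 0.28 (limma, adjusted p = 0.0138). Omission of 1 array ended the call of Tgm2 (L-GMP 2, LSK 1, LSK 2 or LSK 3), Cd27 (LSK 1 or LSK 2), Slamf1 (L-GMP 2, L-GMP 3 or LSK 2), Cxcr4 (LSK 1, LSK 2 or LSK 3) and Ctsf (LSK 2). Slamf1 left the test without LSK 1 or LSK 3.

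**Figure D3:**
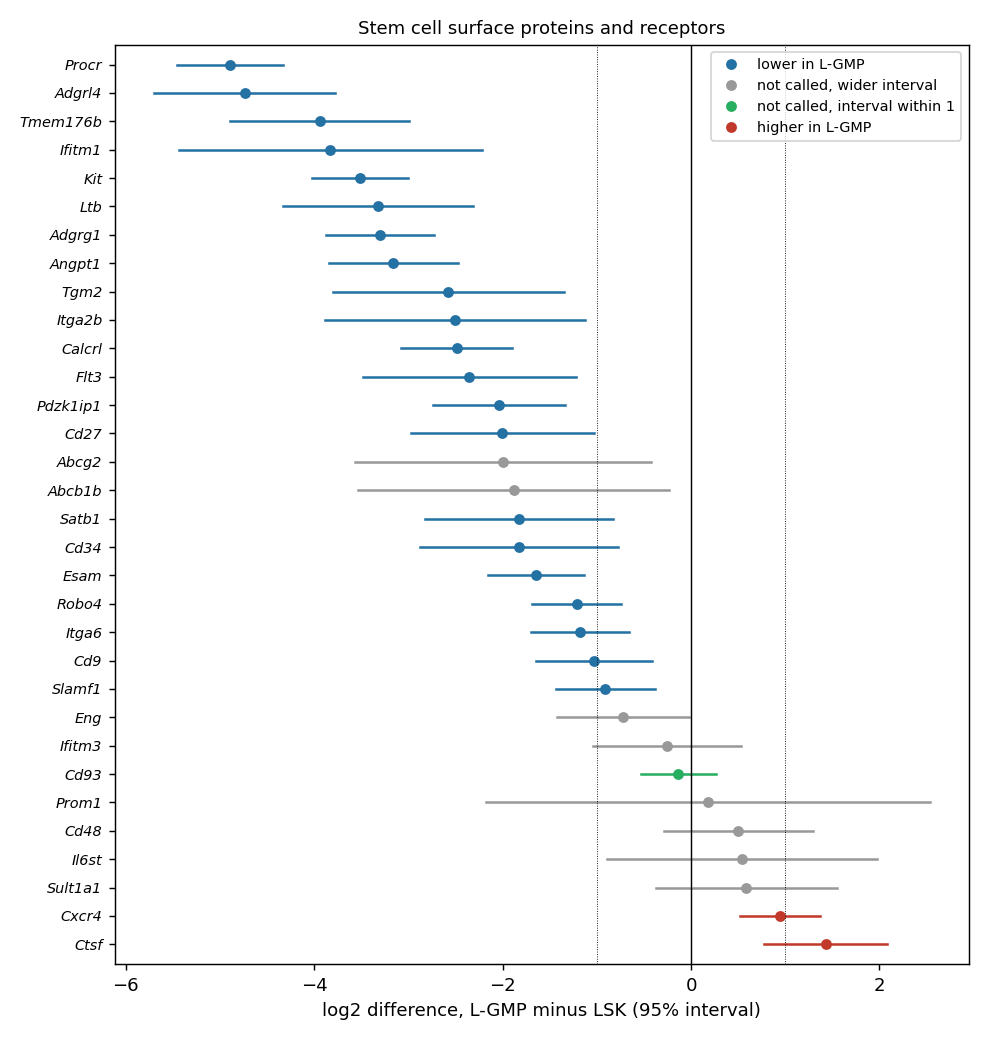
Log2 difference of L-GMP minus LSK (points) with its 95% confidence interval (lines) for the 32 tested surface proteins and receptors, coloured by call, with dotted lines at 1 log2 unit either side of 0. Most points lie left of 0, Procr farthest, and Cxcr4 and Ctsf are the genes called to the right.

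Promoter sequence was drawn for 4 genes, a pair with the losses of Hlf and Procr, which ended under background in L-GMP, and a pair with the gains of Igf2bp3 and Clec5a, which were under background in LSK. The windows are the 250 bases before the first listed transcript start, from RefSeq on GRCm38.p6, written 5′ to 3′ on the strand of the gene, with CG pairs in capitals.
Hlf, chr11:90390918-90391167, minus strand: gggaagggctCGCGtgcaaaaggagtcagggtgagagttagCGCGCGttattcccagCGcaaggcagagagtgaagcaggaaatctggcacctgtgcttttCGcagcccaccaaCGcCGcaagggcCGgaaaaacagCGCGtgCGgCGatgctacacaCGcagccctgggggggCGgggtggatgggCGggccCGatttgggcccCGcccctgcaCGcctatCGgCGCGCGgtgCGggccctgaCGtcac
Procr, chr2:155750967-155751216, plus strand: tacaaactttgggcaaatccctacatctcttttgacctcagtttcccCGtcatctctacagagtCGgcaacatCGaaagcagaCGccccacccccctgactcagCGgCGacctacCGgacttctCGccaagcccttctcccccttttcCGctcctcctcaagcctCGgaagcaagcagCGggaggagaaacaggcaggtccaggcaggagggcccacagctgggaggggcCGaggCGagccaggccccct
Igf2bp3, chr6:49214955-49215204, minus strand: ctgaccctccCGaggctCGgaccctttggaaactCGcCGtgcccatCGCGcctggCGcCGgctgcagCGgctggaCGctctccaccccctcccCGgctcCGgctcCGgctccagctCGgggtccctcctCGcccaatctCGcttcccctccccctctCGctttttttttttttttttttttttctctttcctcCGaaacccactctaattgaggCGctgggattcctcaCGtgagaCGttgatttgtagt
Clec5a, chr6:40585806-40586055, minus strand: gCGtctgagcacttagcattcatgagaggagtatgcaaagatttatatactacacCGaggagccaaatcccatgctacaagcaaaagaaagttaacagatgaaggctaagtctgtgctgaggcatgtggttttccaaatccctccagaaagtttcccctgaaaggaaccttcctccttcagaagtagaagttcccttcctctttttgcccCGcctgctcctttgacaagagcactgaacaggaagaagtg
The windows hold 26 CG pairs for Hlf, 13 for Procr, 21 for Igf2bp3 and 3 for Clec5a, so a lost and a gained gene each have a CG-rich promoter. Of the 7120 genes tested, 5898 had such a window, with a median of 16 CG pairs, against 14 for the 403 higher genes with a window, 15 for the 621 lower ones and 6 for all 27025 genes in the table. On both strands, 5 letter patterns were searched, and their matches may overlap. The PU.1 pattern GAGGAAGT occurred in 17 higher genes (4.22%) and 14 lower genes (2.25%), against 2.34% of tested and 2.44% of all genes. The GATA pattern AGATAA occurred in 8.68% of higher and 5.48% of lower genes, against 5.54% of tested and 10.3% of all genes. The C/EBP pattern TTGCNNAA occurred in 8.68% and 7.09%, against 7.29% of tested and 9.55% of all, and the MEIS pattern TGACAG in 13.9% and 14.5%, against 14.1% and 16%. The HOX-PBX pattern TGATTNAT occurred in 1 higher gene (0.248%) and 10 lower genes (1.61%), against 0.966% of tested and 2.99% of all genes. Such small counts make these shares imprecise. Of these patterns, the 4 windows printed hold 1 match, a C/EBP pattern on the minus strand of the Procr window. Such matches describe the letters and are neither binding sites nor causes.

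Of the genes that leukemia stem cells are known to depend on, 18 of 31 tested were close to LSK, beside 55.8% of all genes tested. Of the list of leukemia stem cell regulators, 31 of 38 on the array were tested, of which 2 were higher and 7 lower in L-GMP, with 18 close to LSK and 4 unresolved and a median difference of −0.11. The higher calls numbered 2 (without any 1 of 5 arrays) to 4 (without L-GMP 1) and lower calls numbered 2 (without LSK 1) to 8 (without L-GMP 1) when 1 array was omitted. Igf2bp3, an oncofetal RNA-binding protein that is little expressed in adult stem cells, had log2 values of 10.07, 10.69 and 10.61 in L-GMP, against 5.07, 5.16 and 4.50 in LSK, and normal GMP read 4.16 to 5.20. L-GMP exceeded LSK by at least 23.4-fold on the probe set used (log2 difference 5.55 ± 0.26 SE; limma, adjusted p = 4.19e-05). All 4 probe sets of the gene were called higher, the others at lower L-GMP levels, to which this bound does not apply. Csf1r, the M-CSF receptor, through which MOZ-TIF2 leukemias are known to be maintained, had log2 values of 12.90, 13.55 and 13.36 in L-GMP, against 9.69, 10.61 and 10.27 in LSK and 11.29 to 11.90 in normal GMP. Every L-GMP array was above every LSK and GMP array, with a difference from LSK of 3.08 ± 0.29 (limma, adjusted p = 0.000593).

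Lower members included Mef2c, Psip1, Bcl2 and Kat6a. Mef2c, a MADS box factor of lymphoid and MLL leukemic progenitors, had log2 values of 6.17, 7.55 and 8.09 in L-GMP, against 9.76, 9.44 and 9.66 in LSK, with L-GMP 1 the lowest, and fell by 2.35 ± 0.45 (limma, adjusted p = 0.0121), with 2 of its 5 probe sets called. Psip1 (LEDGF), which tethers the MLL and menin complex to chromatin, fell by 1.73 ± 0.31 (limma, adjusted p = 0.00959). The survival gene Bcl2 had log2 values of 6.11, 6.23 and 6.00 in L-GMP, against 6.68, 6.75 and 7.25 in LSK and fell by 0.78 ± 0.21 (limma, adjusted p = 0.0407). Kat6a, the mouse MOZ gene, had log2 values of 7.70, 7.95 and 8.07 in L-GMP, against 8.78, 8.60 and 8.64 in LSK, a difference of −0.77 ± 0.18 (limma, adjusted p = 0.0258), and whether its probes read the fusion transcript is not given. Ezh2 and Ctnnb1 (beta-catenin) were close to LSK, with differences of −0.07 ± 0.27 and −0.20 ± 0.33. Kmt2a (MLL) was close to LSK on the probe set used, at 0.01 ± 0.18, and called lower on the other, at −1.16 ± 0.21 (limma, adjusted p = 0.0105), so its probe sets disagree. The same holds for Cd44 and Cd47, counted as close to LSK. Another probe set of each was called, at 1.02 ± 0.24 and −1.11 ± 0.24 (limma, adjusted p = 0.028 and 0.0198). Calls that 1 omitted array ended were those of Mef2c (LSK 1 or LSK 3), Psip1 (LSK 1), Bcl2 (L-GMP 2, L-GMP 3, LSK 1, LSK 2 or LSK 3) and Kat6a (L-GMP 2, LSK 1, LSK 2 or LSK 3).

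Cell cycle inhibitors and the D cyclins differed in both directions. Of the list of quiescence and cell cycle inhibitors, 24 of 28 on the array were tested, of which 3 were higher and 7 lower in L-GMP, with 5 close to LSK and 9 unresolved and a median difference of −0.30. Omitting 1 array at a time, the higher calls numbered 1 (without L-GMP 2 or LSK 1 or LSK 2) to 4 (without L-GMP 1) and lower calls numbered 5 (without LSK 1 or LSK 2 or LSK 3) to 8 (without L-GMP 1). Ccnd2, the D cyclin with most signal change, had log2 values of 7.02, 7.09 and 7.04 in L-GMP, against 10.43, 10.35 and 10.53 in LSK and 10.17 to 10.78 in normal GMP. L-GMP was far below both normal populations, with a difference from LSK of −3.38 ± 0.16 (limma, adjusted p = 4.85e-05). Ccnd1 had log2 values of 7.62, 8.91 and 8.97 in L-GMP, against 6.63, 6.91 and 6.77 in LSK, a difference of 1.73 ± 0.36 (limma, adjusted p = 0.0171), and Ccnd3 was close to LSK at 0.35 ± 0.20. The D1 and D2 cyclins, which activate CDK4 and CDK6 on entry into the cycle, thus differed in opposite directions.

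Cdkn1c (p57), the CDK inhibitor most tied to stem cell quiescence, had log2 values of 8.08, 8.77 and 9.27 in L-GMP, against 5.90, 6.55 and 6.41 in LSK and 4.71 to 5.26 in normal GMP. Its L-GMP values were above every LSK and GMP array, by 2.42 ± 0.33 from LSK (limma, adjusted p = 0.00319). Cdkn1a (p21) was higher by 1.72 ± 0.37 (limma, adjusted p = 0.0191), and Cdkn1b (p27) was close to LSK at 0.23 ± 0.20. Tgfbr2, the receptor through which TGF-beta keeps stem cells quiescent, had log2 values of 5.48, 5.41 and 4.87 in L-GMP, against 8.40, 8.02 and 8.34 in LSK and was at least 5.09-fold lower (log2 difference −3.0 ± 0.23 SE; limma, adjusted p = 0.000246). Of the forkhead factors that guard stem cells against oxidative stress, Foxo1 was under background in L-GMP and at least 1.25-fold lower (limma, adjusted p = 0.00545), and Foxo3 fell by 1.28 ± 0.17 (limma, adjusted p = 0.00283). Txnip, a thioredoxin-binding protein that FOXO factors are known to induce, fell by 1.32 ± 0.31 (limma, adjusted p = 0.0258). The call was lost for Ccnd1 without L-GMP 2, LSK 1, LSK 2 or LSK 3, Cdkn1a without L-GMP 2, LSK 1 or LSK 2 and Txnip without L-GMP 3, LSK 1, LSK 2 or LSK 3.

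Genes of proliferation and growth showed few calls. In the S phase and DNA replication list, 39 genes were tested of 41 on the array, of which 1 was higher and 0 lower in L-GMP, with 22 close to LSK and 16 unresolved and a median difference of −0.10. With 1 array left out, the higher calls numbered 0 (without any 1 of 4 arrays) to 9 (without L-GMP 1). For the G2 and mitosis list, 40 of 41 genes on the array were tested, of which 1 was higher and 0 lower in L-GMP, with 19 close to LSK and 20 unresolved and a median difference of 0.03. When 1 array at a time was left out, the higher calls numbered 1 (without any 1 of 5 arrays) to 8 (without L-GMP 1) and lower calls numbered 0 (without any 1 of 4 arrays) to 3 (without L-GMP 3). Of the ribosome biogenesis and Myc targets list, 39 of 39 genes on the array were tested, of which 1 was higher and 0 lower in L-GMP, with 21 close to LSK and 17 unresolved and a median difference of 0.07. Over the 6 fits with 1 array left out, the higher calls numbered 1 (without any 1 of 5 arrays) to 17 (without L-GMP 1). The 3 genes called were Cdc45, a subunit of the replicative helicase, Smc4, a condensin subunit, and Nop2, a nucleolar RNA methyltransferase. Smc4 had log2 values of 12.20, 12.52 and 12.59 in L-GMP, against 10.77, 10.55 and 11.02 in LSK and was higher on every L-GMP array, by 1.66 ± 0.21 (limma, adjusted p = 0.00208). Without L-GMP 1 the higher calls numbered 9 for S phase, 8 for mitosis and 17 for ribosome biogenesis, and the lower calls 1, 2 and 0. Over all genes that fit called 1350 higher and 1353 lower, against 506 and 770 with all arrays. The rise in higher calls was thus not limited to these lists. Myc had log2 values of 9.11, 9.52 and 8.86 in L-GMP, against 10.42, 9.98 and 9.56 in LSK and was unresolved, with an interval of −1.46 to −0.18. Omission of 1 array ended the call of Cdc45 (L-GMP 2, L-GMP 3, LSK 1, LSK 2 or LSK 3).

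Genes of the respiratory chain had few calls, and those of glycolysis went both ways. The list of respiratory chain genes had 44 tested of 44 on the array, of which 1 was higher and 0 lower in L-GMP, with 35 close to LSK and 8 unresolved and a median difference of 0.17. The higher calls numbered 0 (without any 1 of 4 arrays) to 9 (without L-GMP 1) when 1 array was omitted. In the glycolysis and hypoxia list, 25 genes were tested of 28 on the array, of which 4 were higher and 5 lower in L-GMP, with 8 close to LSK and 8 unresolved and a median difference of 0.40. Omitting 1 array at a time, the higher calls numbered 2 (without L-GMP 2 or LSK 1 or LSK 2) to 9 (without L-GMP 1) and lower calls numbered 2 (without L-GMP 2 or LSK 1 or LSK 3) to 5 (without L-GMP 1 or L-GMP 3). The hexokinase genes went opposite ways, with Hk2 higher by 0.91 ± 0.19 (limma, adjusted p = 0.017) and Hk1 lower, at −0.84 ± 0.20 (limma, adjusted p = 0.0285). The glycolytic mutase gene Pgam1 had log2 values of 9.81, 10.28 and 10.17 in L-GMP, against 8.69, 8.43 and 8.74 in LSK, all above LSK, with a difference of 1.47 ± 0.20 (limma, adjusted p = 0.00319). Slc2a3, which encodes the glucose transporter GLUT3, had log2 values of 8.12, 6.67 and 7.62 in L-GMP, against 9.48, 9.52 and 9.86 in LSK, a difference of −2.15 ± 0.36 (limma, adjusted p = 0.00713). Without L-GMP 1 the respiratory list had 9 genes higher and 0 lower, and the glycolysis list 9 higher and 5 lower. In the same fit 1350 of all genes were higher and 1353 lower, against 506 and 770 with all arrays, so more calls were not particular to these lists. For the cholesterol biosynthesis list, 19 of 19 genes on the array were tested, of which 3 were higher and 1 lower in L-GMP, with 10 close to LSK and 5 unresolved and a median difference of 0.05. Its share called in either direction was 21.1%, near the 17.9% of all genes. With 1 array left out, the higher calls numbered 0 (without LSK 1 or LSK 2 or LSK 3) to 6 (without L-GMP 1) and lower calls numbered 0 (without any 1 of 4 arrays) to 1. The higher members were the pathway enzyme genes Mvd, Tm7sf2 and Sc5d. Srebf2, the transcription factor of the pathway, was the lower one on the probe set used, at −1.35 ± 0.32 (limma, adjusted p = 0.026), while its other probe set stood at −0.12 ± 0.17 (limma, adjusted p = 0.671). Calls that 1 omitted array ended were those of Hk2 (L-GMP 2, LSK 1 or LSK 2), Hk1, Tm7sf2, Sc5d and Srebf2 (L-GMP 2, LSK 1, LSK 2 or LSK 3) and Mvd (L-GMP 3, LSK 1, LSK 2 or LSK 3).

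Cytokine receptor genes differed in both directions. Of the cytokine receptors and signalling list, 35 of 44 genes on the array were tested, of which 7 were higher and 9 lower in L-GMP, with 7 close to LSK and 12 unresolved and a median difference of −0.07. The lower ones include Kit, which encodes a protein used to sort the cells and is no finding. When 1 array at a time was left out, the higher calls numbered 4 (without LSK 2) to 11 (without L-GMP 1) and lower calls numbered 4 (without LSK 3) to 13 (without L-GMP 1). Flt3, the receptor of early progenitors, had log2 values of 6.43, 8.20 and 8.35 in L-GMP, against 10.02, 10.23 and 9.80 in LSK and 5.98 to 7.46 in normal GMP, and differed from LSK by −2.35 ± 0.48 (limma, adjusted p = 0.0161). L-GMP 1 was the lowest of the leukemic arrays for Flt3. The interleukin 1 receptor gene Il1r1 had log2 values of 5.86, 5.59 and 4.85 in L-GMP, against 7.77, 7.84 and 8.01 in LSK, under background on every L-GMP array and at least 3.91-fold lower (limma, adjusted p = 0.00135). Il6ra, the ligand-binding chain of the interleukin 6 receptor, had log2 values of 7.48, 9.01 and 8.98 in L-GMP, against 4.98, 5.22 and 6.05 in LSK and 6.53 to 7.40 in normal GMP. It was higher in L-GMP than in LSK by 3.08 ± 0.46 (limma, adjusted p = 0.00481), and Csf1r, above, moved the same way. The interferon receptor genes Ifnar1, Ifnar2 and Ifngr1 were higher, by 0.92 ± 0.23, 1.36 ± 0.17 and 1.24 ± 0.22 (limma, adjusted p = 0.0343, 0.00214 and 0.00949), with 1 of the 2 tested probe sets of Ifnar2 called. Of the signalling genes downstream of receptors, Stat5a was lower at −0.96 ± 0.25 (limma, adjusted p = 0.0352) and Jak1 at −0.84 ± 0.17 (limma, adjusted p = 0.0157). Stat5b was called lower on the probe set used, at −1.25 ± 0.19 (limma, adjusted p = 0.00526), and stood at 0.18 ± 0.20 on the other (limma, adjusted p = 0.577), so its probe sets disagree. Csf3r, the G-CSF receptor of granulocyte precursors, was close to LSK at 0.12 ± 0.22. The call was lost for Flt3 without LSK 1, LSK 2 or LSK 3, Ifnar1 without L-GMP 2, L-GMP 3, LSK 1, LSK 2 or LSK 3, Stat5a without L-GMP 2, LSK 1 or LSK 3 and Jak1 without L-GMP 2, LSK 1, LSK 2 or LSK 3.

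Chromatin regulators had 7 lower calls and 0 higher ones, beside 10.8% and 7.11% of all genes, with the direction of Dnmt3a unsettled between its probe sets. Of the list of polycomb and chromatin regulators, 32 of 37 on the array were tested, of which 0 were higher and 7 lower in L-GMP, with 17 close to LSK and 8 unresolved and a median difference of −0.30. Over the 6 fits with 1 array left out, the higher calls numbered 0 to 1 (without L-GMP 1) and lower calls numbered 3 (without LSK 1) to 11 (without L-GMP 1). Ezh1, the polycomb methyltransferase of resting cells, had log2 values of 7.34, 7.13 and 7.13 in L-GMP, against 8.35, 8.51 and 8.14 in LSK, a difference of −1.13 ± 0.18 (limma, adjusted p = 0.00632), while Ezh2, its counterpart in cycling cells, was close to LSK. Dnmt3b, a de novo DNA methyltransferase, had log2 values of 7.18, 8.16 and 8.20 in L-GMP, against 9.82, 9.86 and 9.42 in LSK, a difference of −1.86 ± 0.31 (limma, adjusted p = 0.00687), with 1 of its 2 probe sets called. Dnmt3a, the de novo methyltransferase often mutated in human leukemia, fell by 1.77 ± 0.22 (limma, adjusted p = 0.00224) on the probe set used. Of its 5 probe sets, 2 were called lower and 1 was called higher at 1.01 ± 0.20 (limma, adjusted p = 0.0139), so the gene has no single direction. In the beta-catenin and Wnt list, 10 genes were tested of 32 on the array, of which 0 were higher and 2 lower in L-GMP, with 8 close to LSK and 0 unresolved and a median difference of −0.17. Its share called in either direction was 20%, near the 17.9% of all genes. Without any 1 of 4 arrays the lower calls numbered 1. The lower members were the Wnt receptor gene Fzd6, under background in L-GMP and at least 2.48-fold lower (limma, adjusted p = 0.000508), and the corepressor gene Tle1, at −0.71 ± 0.20 (limma, adjusted p = 0.0463). Omission of 1 array ended the call of Tle1 (L-GMP 2, LSK 1, LSK 2 or LSK 3).

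Genes of the other blood lineages, which LSK cells are known to transcribe at low levels as lineage priming, had 0 higher calls in the erythroid and megakaryocytic, lymphoid and mast cell lists with all 6 arrays. Members under background on every L-GMP array entered the test through LSK alone and could hardly be called higher, so the filter fixed part of that result. For the megakaryocyte and erythroid list, 20 of 31 genes on the array were tested, of which 0 were higher and 11 lower in L-GMP, with 1 close to LSK and 8 unresolved and a median difference of −1.56. The higher calls numbered 0 to 1 (without L-GMP 1) and lower calls numbered 5 (without LSK 1) to 16 (without L-GMP 1) when 1 array was omitted. Gata1, the master factor of both lineages, had log2 values of 5.69, 4.62 and 4.83 in L-GMP, against 7.50, 6.50 and 7.10 in LSK. The erythroid factor gene Klf1 had log2 values of 5.69, 5.42 and 4.72 in L-GMP, against 8.15, 7.20 and 7.47 in LSK. All L-GMP arrays were under background for both genes, which were at least 2.18-fold (limma, adjusted p = 0.00949) and 3.25-fold (limma, adjusted p = 0.00385) lower. The carbonic anhydrase gene Car2 had log2 values of 6.52, 5.98 and 6.70 in L-GMP, against 11.26, 11.21 and 11.80 in LSK, a difference of −5.02 ± 0.26 (limma, adjusted p = 6.17e-05). Pf4, platelet factor 4, had log2 values of 8.01, 5.59 and 4.39 in L-GMP, against 9.39, 8.92 and 9.61 in LSK and 9.48 to 10.62 in normal GMP. L-GMP 1 held the highest leukemic value of Pf4, and the difference was −3.31 ± 0.80 (limma, adjusted p = 0.0293).

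Of the lymphoid priming and lymphoid cells list, 9 of 36 genes on the array were tested, of which 0 were higher and 4 lower in L-GMP, with 2 close to LSK and 3 unresolved and a median difference of −0.87. Omitting 1 array at a time, the higher calls numbered 0 to 1 (without L-GMP 1) and lower calls numbered 3 (without LSK 1 or LSK 2 or LSK 3) to 5 (without L-GMP 1). Dntt, the terminal transferase of lymphoid-primed progenitors, had log2 values of 5.10, 4.67 and 5.21 in L-GMP, against 9.47, 10.02 and 9.67 in LSK and 5.15 to 5.92 in normal GMP. It was at least 14.1-fold lower in L-GMP (log2 difference −4.73 ± 0.23 SE; limma, adjusted p = 4.9e-05). Satb1, a chromatin organiser that promotes lymphoid fate, fell by 1.83 ± 0.43 (limma, adjusted p = 0.0259), and the granule protein gene Nkg7 had log2 values of 8.08, 5.90 and 6.71 in L-GMP, against 10.51, 10.36 and 10.68 in LSK, a difference of −3.62 ± 0.49 (limma, adjusted p = 0.00322). The list of dendritic cell and MHC class II genes had 8 tested of 18 on the array, of which 1 was higher and 3 lower in L-GMP, with 1 close to LSK and 3 unresolved and a median difference of −0.88. With 1 array left out, the higher calls numbered 0 (without any 1 of 4 arrays) to 2 (without L-GMP 1) and lower calls numbered 1 (without LSK 1 or LSK 2 or LSK 3) to 5 (without L-GMP 1). The MHC class II chain genes H2-Aa and H2-Ab1 fell by 2.18 ± 0.41 (limma, adjusted p = 0.011) and 1.51 ± 0.37 (limma, adjusted p = 0.0311), and dendritic cell markers summed on the linear scale to 162 to 295 in L-GMP, against 526 to 1200 in LSK. In the mast cell, basophil and eosinophil list, 7 genes were tested of 21 on the array, of which 0 were higher and 2 lower in L-GMP, with 0 close to LSK and 5 unresolved and a median difference of −1.01. When 1 array at a time was left out, the lower calls numbered 1 (without LSK 1 or LSK 2) to 6 (without L-GMP 1). Its lower members were Gata2 and the eosinophil granule gene Prg2, at −2.72 ± 0.54 (limma, adjusted p = 0.014). Calls that 1 omitted array ended were those of Pf4 and H2-Ab1 (L-GMP 2, LSK 1, LSK 2 or LSK 3), Satb1 (LSK 1, LSK 2 or LSK 3) and Prg2 (LSK 1 or LSK 2).

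Monocyte genes had higher calls only, though members under background on every LSK array entered the test through L-GMP alone and could hardly be called lower. For the monocyte and macrophage list, 31 of 38 genes on the array were tested, of which 10 were higher and 0 lower in L-GMP, with 4 close to LSK and 17 unresolved and a median difference of 1.07. The higher ones include Fcgr2b, an Fc receptor gene of the sorting gate, whose value is no finding. Over the 6 fits with 1 array left out, the higher calls numbered 7 (without LSK 1) to 18 (without L-GMP 3). Tyrobp, the DAP12 signalling adaptor of myeloid receptors, had log2 values of 12.82, 12.62 and 12.60 in L-GMP, against 9.71, 9.70 and 10.32 in LSK and 11.01 to 11.49 in normal GMP. F13a1, the coagulation factor XIII subunit made by monocytes, had log2 values of 10.41, 11.69 and 11.25 in L-GMP, against 7.05, 8.13 and 8.77 in LSK. The lysosomal glycoprotein gene Cd68 had log2 values of 9.91, 10.07 and 9.56 in L-GMP, against 7.34, 7.40 and 7.56 in LSK. Every L-GMP array was above every LSK array for the 3 genes, with differences of 2.77 ± 0.22 (limma, adjusted p = 0.000302), 3.13 ± 0.48 (limma, adjusted p = 0.00521) and 2.41 ± 0.20 (limma, adjusted p = 0.000325). Fcer1g, the Fc receptor gamma chain, was higher by 2.02 ± 0.31 (limma, adjusted p = 0.00526), and Cd14, the coreceptor for endotoxin, was under background in LSK and at least 2.54-fold higher (limma, adjusted p = 0.0143). The monocyte factor gene Irf8 had log2 values of 9.54, 11.31 and 11.16 in L-GMP, against 8.79, 9.13 and 9.36 in LSK and was not called (limma, adjusted p = 0.053), with L-GMP 1 lower than the other 2 leukemic arrays. Without L-GMP 1, the array that Irf8 itself sets apart, the difference was 2.14, and no p-value is given for it.

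Of the list of myeloid transcription factors, 17 of 24 on the array were tested, of which 6 were higher and 3 lower in L-GMP, with 1 close to LSK and 7 unresolved and a median difference of 0.54. The higher calls numbered 3 (without LSK 1 or LSK 2) to 8 (without L-GMP 1) and lower calls numbered 0 (without LSK 3) to 3 (without L-GMP 1 or L-GMP 2 or L-GMP 3) when 1 array was omitted. Spi1 (PU.1), the factor with which MOZ fusions activate Csf1r in experiments, had log2 values of 10.00, 10.04 and 9.69 in L-GMP, against 8.46, 8.41 and 8.44 in LSK and 8.81 to 9.16 in normal GMP. Cebpd, a C/EBP factor of stimulated and maturing myeloid cells, had log2 values of 9.98, 9.18 and 9.28 in L-GMP, against 5.80, 5.85 and 7.29 in LSK. Cebpb, needed for emergency granulopoiesis, had log2 values of 10.86, 10.26 and 9.25 in L-GMP, against 7.54, 7.90 and 8.30 in LSK. Spi1, Cebpd and Cebpb were above LSK on every array, by 1.48 ± 0.18 (limma, adjusted p = 0.00184), 3.17 ± 0.43 (limma, adjusted p = 0.00314) and 2.21 ± 0.41 (limma, adjusted p = 0.0108). Gfi1, a repressor that directs progenitors to granulocytes, had log2 values of 10.42, 9.49 and 9.38 in L-GMP, against 7.58, 7.84 and 7.51 in LSK, a difference of 2.12 ± 0.29 (limma, adjusted p = 0.00351). Cebpa, which GMP formation requires, had log2 values of 9.36, 8.03 and 7.65 in L-GMP, against 7.44, 7.58 and 7.73 in LSK and was unresolved, with L-GMP 1 above the rest and an interval of −0.19 to 1.73. Lower members were Mef2c, Per3, under background in L-GMP and at least 1.6-fold lower, and the AP-1 gene Fos, which fell by 1.45 ± 0.28 (limma, adjusted p = 0.0122). The call was lost for Cd14 and Cebpb without LSK 1 or LSK 2, Fos without LSK 2 or LSK 3 and Per3 without LSK 1, LSK 2 or LSK 3.

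Granule genes are described by the stage of maturation they mark, from the primary granules of promyelocytes to the secondary granules of later cells. The list of primary granule genes had 20 tested of 22 on the array, of which 6 were higher and 1 lower in L-GMP, with 3 close to LSK and 10 unresolved and a median difference of 0.83. Omitting 1 array at a time, the higher calls numbered 3 (without LSK 1 or LSK 2) to 8 (without L-GMP 3) and lower calls numbered 1 (without any 1 of 5 arrays) to 4 (without L-GMP 1). Mpo, myeloperoxidase, had log2 values of 13.76, 13.28 and 13.50 in L-GMP, against 12.39, 12.50 and 12.73 in LSK and 13.61 to 13.78 in normal GMP, a difference from LSK of 0.97 ± 0.20 (limma, adjusted p = 0.0165). The protease gene Ctsg had log2 values of 13.47, 12.99 and 12.80 in L-GMP, against 10.78, 10.97 and 11.73 in LSK, a difference of 1.92 ± 0.30 (limma, adjusted p = 0.00551). Clec5a, a DAP12-coupled lectin, had log2 values of 7.77, 7.69 and 7.69 in L-GMP, against 4.03, 4.42 and 5.32 in LSK and was at least 3.5-fold higher than in LSK (log2 difference 3.12 ± 0.32 SE; limma, adjusted p = 0.00096). Elane, neutrophil elastase, had log2 values of 12.87, 11.31 and 10.37 in L-GMP, against 10.37, 11.54 and 11.85 in LSK, which overlapped, and was unresolved with an interval of −1.24 to 1.76. Normal GMP read 13.03 to 13.41 for Elane, above L-GMP 2 and 3 and above LSK. Omission of 1 array ended the call of Mpo (LSK 1 or LSK 2).

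In the secondary granule and neutrophil maturation list, 21 genes were tested of 26 on the array, of which 2 were higher and 2 lower in L-GMP, with 0 close to LSK and 17 unresolved and a median difference of −0.30. With 1 array left out, the higher calls numbered 2 (without any 1 of 4 arrays) to 5 (without L-GMP 3) and lower calls numbered 0 (without any 1 of 5 arrays) to 11 (without L-GMP 1). The number of lower calls thus turned on L-GMP 1. Ltf, the secondary granule protein lactoferrin, had log2 values of 11.39, 6.98 and 7.13 in L-GMP, against 9.63, 10.20 and 10.51 in LSK. Camp, the cathelicidin antimicrobial peptide, had log2 values of 11.81, 6.99 and 6.68 in L-GMP, against 9.92, 10.72 and 10.96 in LSK. S100a9, a calprotectin chain, had log2 values of 13.97, 10.17 and 8.99 in L-GMP, against 11.92, 12.74 and 12.65 in LSK. For the 3 genes L-GMP 1 was above and L-GMP 2 and 3 below every LSK array. Without L-GMP 1 the log2 differences were −3.06 for Ltf, −3.70 for Camp and −2.86 for S100a9. These rest on L-GMP 2 and L-GMP 3 alone, and the array left out is the one that these same genes set apart, so no p-value is given. With all arrays the differences were −1.61 ± 1.08, −2.04 ± 1.24 and −1.40 ± 1.12, none of them called. Neutrophil markers were also well above background in LSK, at sums of 17600 to 28400 on the linear scale beside 21000 to 34600 in normal GMP, and their part in the differences was not tested.

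**Figure D4:**
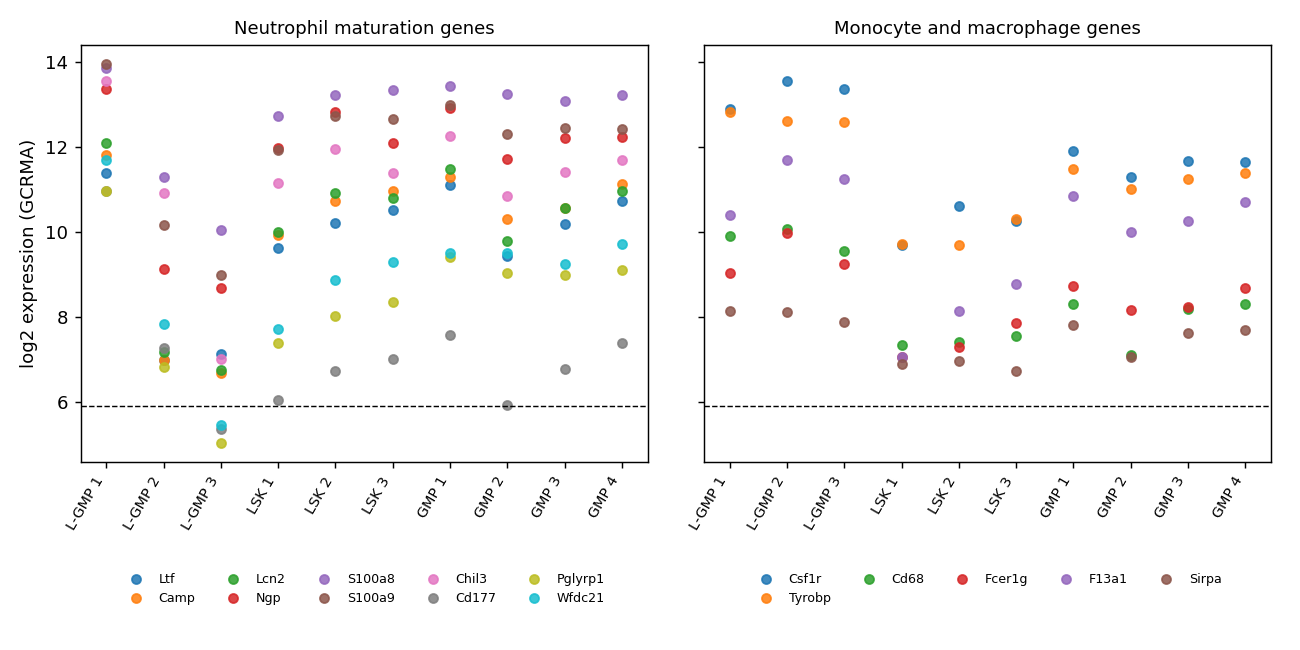
Log2 expression on each array of L-GMP, LSK and normal GMP for 10 neutrophil maturation genes (left) and 6 monocyte genes (right), 1 point per gene and array, with a dashed line at the background level of 60. The neutrophil genes, Ltf, Camp and S100a9 among them, are higher on L-GMP 1 than on L-GMP 2 and 3, while the monocyte genes, Tyrobp and Cd68 among them, are above LSK on all 3 L-GMP arrays.

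Interferon response genes were called in both directions, and the stress list held calls in neither direction beyond the 7.11% higher and 10.8% lower of all genes. For the interferon response list, 37 of 38 genes on the array were tested, of which 3 were higher and 6 lower in L-GMP, with 10 close to LSK and 18 unresolved and a median difference of −0.03. When 1 array at a time was left out, the higher calls numbered 0 (without LSK 1) to 9 (without L-GMP 3) and lower calls numbered 4 (without any 1 of 5 arrays) to 13 (without L-GMP 1). Iigp1, an immunity-related GTPase, had log2 values of 5.47, 5.20 and 4.35 in L-GMP, against 8.31, 8.70 and 9.84 in LSK, under background on every L-GMP array and at least 8.25-fold lower (limma, adjusted p = 0.00135). Gbp2, a guanylate-binding protein, had log2 values of 6.92, 7.10 and 6.77 in L-GMP, against 9.23, 9.10 and 9.66 in LSK, a difference of −2.40 ± 0.21 (limma, adjusted p = 0.000487). LSK was higher on every array for both genes. Irf1, the factor that transmits interferon gamma signals, fell by 1.17 ± 0.20 (limma, adjusted p = 0.00837), while Samhd1, a dNTP hydrolase, and Ifi27l2a were higher by 1.17 ± 0.22 (limma, adjusted p = 0.0111) and 2.25 ± 0.41 (limma, adjusted p = 0.0102). Of the 4 probe sets of Samhd1, 1 was called. Of the immediate early and stress list, 29 of 33 genes on the array were tested, of which 2 were higher and 2 lower in L-GMP, with 4 close to LSK and 21 unresolved and a median difference of −0.28. Over the 6 fits with 1 array left out, the lower calls numbered 0 (without LSK 2 or LSK 3) to 3 (without L-GMP 1). Genes that respond within minutes of handling varied among the LSK arrays, and Atf3 had log2 values of 7.01, 6.63 and 4.85 in L-GMP, against 5.33, 6.08 and 9.48 in LSK. LSK 3 was the highest of the 6 arrays for Atf3 and Klf6. Gadd45b, a stress and cytokine-induced gene, had log2 values of 10.72, 10.39 and 9.72 in L-GMP, against 7.65, 7.96 and 8.15 in LSK, a difference of 2.35 ± 0.29 (limma, adjusted p = 0.00191).

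The list of NF-kB and inflammatory genes had 15 tested of 30 on the array, of which 1 was higher and 2 lower in L-GMP, with 6 close to LSK and 6 unresolved and a median difference of −0.02. These calls are 6.67% and 13.3% of those tested, near the 7.11% and 10.8% of all genes. With 1 array left out, the higher calls numbered 0 (without any 1 of 4 arrays) to 1 and lower calls numbered 1 (without any 1 of 5 arrays) to 2 (without L-GMP 1). The genes called were Tnf, under background in LSK and at least 1.64-fold higher (limma, adjusted p = 0.039), and the chemokine genes Ccl4 and Ccl9, at −1.17 ± 0.32 and −2.53 ± 0.33 (limma, adjusted p = 0.0455 and 0.0028). In the p53 targets and apoptosis list, 23 genes were tested of 28 on the array, of which 3 were higher and 4 lower in L-GMP, with 13 close to LSK and 3 unresolved and a median difference of 0.01. The higher calls numbered 1 (without L-GMP 2 or LSK 1 or LSK 2) to 5 (without L-GMP 1) and lower calls numbered 2 (without any 1 of 5 arrays) to 4 (without L-GMP 1) when 1 array was omitted. Pmaip1 (NOXA), a proapoptotic BH3 protein, had log2 values of 7.28, 7.15 and 6.73 in L-GMP, against 3.80, 3.59 and 5.55 in LSK, and was at least 2.21-fold higher in L-GMP (log2 difference 2.74 ± 0.49 SE; limma, adjusted p = 0.00972). Sesn1, a sestrin induced by p53 and FOXO, had log2 values of 7.73, 8.49 and 8.86 in L-GMP, against 10.49, 10.76 and 10.51 in LSK, a difference of −2.22 ± 0.30 (limma, adjusted p = 0.00286). For the integrins, selectins and adhesion list, 21 of 32 genes on the array were tested, of which 3 were higher and 7 lower in L-GMP, with 6 close to LSK and 5 unresolved and a median difference of −0.48. The lower ones include Cd34, which encodes a protein used to sort the cells and is no finding. Omitting 1 array at a time, the higher calls numbered 0 (without LSK 1 or LSK 2) to 4 (without L-GMP 1 or L-GMP 3) and lower calls numbered 3 (without LSK 1 or LSK 3) to 9 (without L-GMP 1). Icam2, an adhesion ligand of endothelium and progenitors, had log2 values of 6.90, 7.16 and 7.46 in L-GMP, against 9.71, 9.22 and 9.38 in LSK, a difference of −2.26 ± 0.22 (limma, adjusted p = 0.00079). Itgav, the alpha V integrin chain, was higher by 1.02 ± 0.18 (limma, adjusted p = 0.00913), and the alpha 6 chain gene Itga6 lower, at −1.18 ± 0.22 (limma, adjusted p = 0.0116). Calls that 1 omitted array ended were those of Samhd1 and Itgav (LSK 1 or LSK 2), Ifi27l2a (LSK 1), Tnf (L-GMP 2, LSK 1, LSK 2 or LSK 3), Ccl4 (L-GMP 2, L-GMP 3, LSK 1, LSK 2 or LSK 3) and Itga6 (LSK 1 or LSK 3).

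The 12 genes with the largest log2 differences upward among called genes whose groups did not overlap are named next, and for 10 of them every LSK array was under background, so their order is not an order of fold. Tnnt1, the slow skeletal muscle troponin T, had log2 values of 10.74, 10.94 and 10.91 in L-GMP, against 4.67, 4.79 and 5.08 in LSK, at least 31.1-fold higher in L-GMP (log2 difference 6.02 ± 0.19 SE; limma, adjusted p = 1.17e-05), and 5.88 to 6.09 in normal GMP. The acute phase gene Saa3 had log2 values of 10.48, 11.93 and 11.13 in L-GMP, against 5.15, 5.49 and 4.99 in LSK, at least 38.7-fold higher (log2 difference 5.97 ± 0.36 SE; limma, adjusted p = 8.94e-05). Ms4a6d, a tetraspanning protein of macrophages, and Mgl2, a C-type lectin of macrophages and dendritic cells, were at least 13.4-fold and 5.09-fold higher (limma, adjusted p = 0.000545 and 0.000124). Hpgd, the enzyme that inactivates prostaglandins, had log2 values of 11.77, 11.10 and 7.61 in L-GMP, against 5.17, 4.90 and 4.87 in LSK. L-GMP 3 was well below the other leukemic arrays for Hpgd and still above LSK, which was under background, and the gene was at least 19.1-fold higher (limma, adjusted p = 0.0105). Slfn4, a Schlafen gene of myeloid cells, had log2 values of 12.39, 11.33 and 10.09 in L-GMP, against 5.25, 6.19 and 8.03 in LSK, with LSK 3 above the other LSK arrays. F10, which encodes coagulation factor X, was at least 8.6-fold higher (log2 difference 4.36 ± 0.43 SE; limma, adjusted p = 0.000797). Tctex1d1, Sgip1 and Depdc7 were at least 9.07-fold, 12.7-fold and 4.04-fold higher (limma, adjusted p = 0.000118, 2.48e-05 and 0.00551). Abcd2, over background on 1 LSK array, differed by 4.44 ± 0.37 (limma, adjusted p = 0.000343) and completes the group beside Igf2bp3. The call was lost for Hpgd without LSK 2.

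Among the 12 genes with the largest log2 differences downward, 7 were under background on every L-GMP array, and Procr, Adgrl4, Car1 and Car2 belong to the lists above. Ctla2a had log2 values of 3.91, 3.49 and 4.20 in L-GMP, against 10.69, 10.55 and 10.68 in LSK. Ctla2b had log2 values of 4.11, 4.13 and 4.65 in L-GMP, against 9.76, 9.85 and 10.07 in LSK. The pair are close paralogs of a cysteine protease inhibitor whose probes may share transcripts, so their separate losses of at least 26.6-fold and 15.8-fold are uncertain (limma, adjusted p = 1.17e-05 and 2.48e-05). Itih5, a hyaluronan-binding inhibitor heavy chain, had log2 values of 4.70, 4.75 and 4.21 in L-GMP, against 9.75, 9.63 and 9.77 in LSK, at least 14-fold lower (log2 difference −5.16 ± 0.20 SE; limma, adjusted p = 2.48e-05). P2ry14, the UDP-glucose receptor, had log2 values of 3.76, 3.88 and 4.10 in L-GMP, against 9.11, 8.72 and 8.70 in LSK, at least 7.65-fold lower (log2 difference −4.93 ± 0.20 SE; limma, adjusted p = 2.48e-05). The thrombin receptor gene F2r had log2 values of 5.68, 6.56 and 6.59 in L-GMP, against 11.14, 10.87 and 11.50 in LSK, a difference of −4.90 ± 0.30 (limma, adjusted p = 9.42e-05). For these genes the LSK arrays differed from each other by less than 1 log2 unit. That every L-GMP array was below every LSK array was a condition of their choice and is no further result. Rab38, a small GTPase of lysosome-related organelles, and Gcnt2, a glycan branching enzyme, were at least 13-fold and 15-fold lower (limma, adjusted p = 0.000114 and 2.48e-05). Tspan13, a tetraspanin over background on 1 L-GMP array, differed by −5.04 ± 0.49 (limma, adjusted p = 0.000777). Normal GMP stood above every L-GMP array for Rab38, at 7.70 to 8.58, and for F2r, at 8.02 to 9.94.

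**Figure D5:**
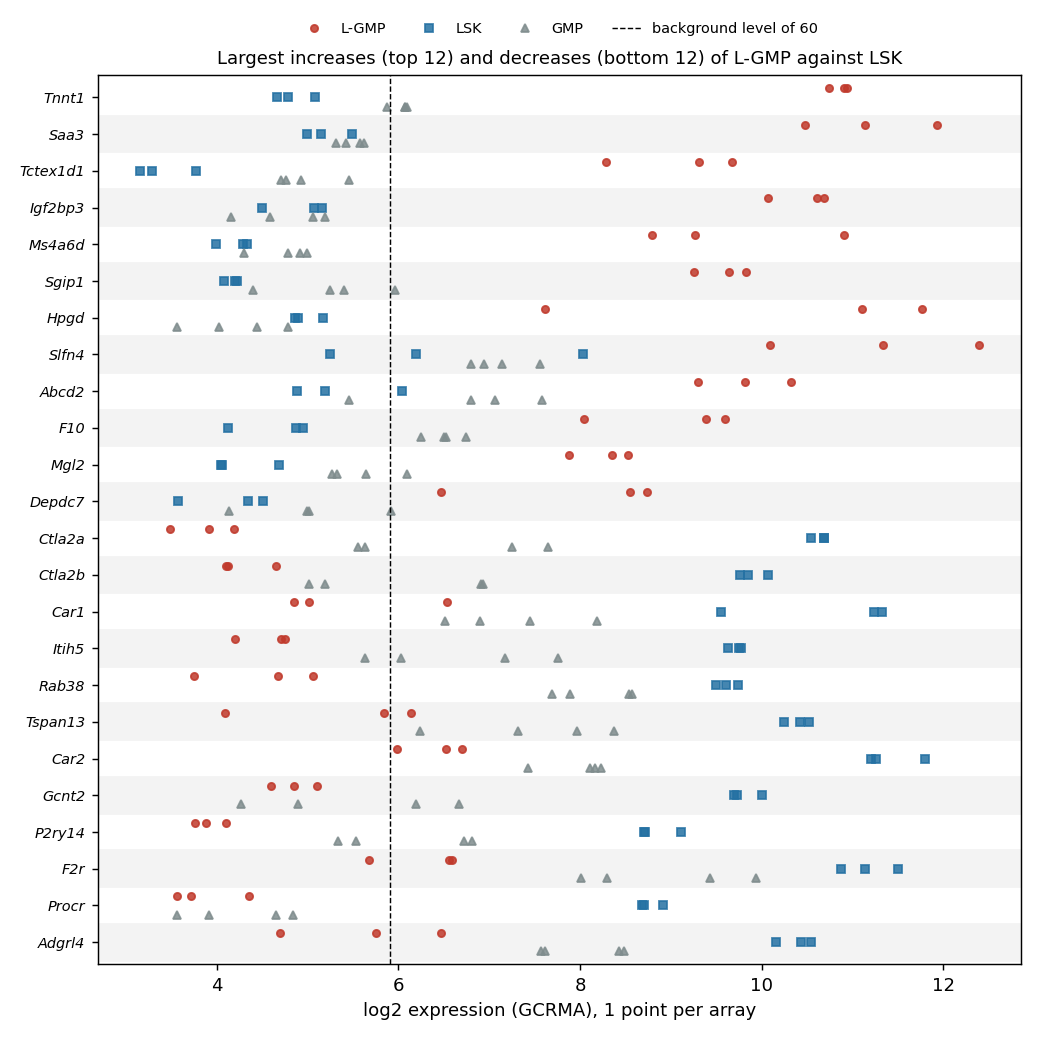
Log2 expression of the 12 genes with the largest log2 differences upward (top) and downward (bottom) of L-GMP against LSK, with 1 point per array for L-GMP, LSK and normal GMP and a dashed line at the background level of 60. The LSK points of most increased genes and the L-GMP points of most decreased genes lie left of that line.

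Among the 3 tested genes of the sex chromosomes, Kdm5d, on the Y chromosome, was lower in L-GMP at −0.89 ± 0.17 (limma, adjusted p = 0.0121), and Eif2s3y had log2 values of 8.90, 9.20 and 8.95 in L-GMP, against 9.38, 9.59 and 9.64 in LSK, above background on all 6 arrays. Xist was near background in both groups, with a difference of 0.16 ± 0.30. Omission of 1 array ended the call of Kdm5d (LSK 1, LSK 2 or LSK 3). Both groups therefore held cells with Y-linked transcripts.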

How the data were processed

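Total RNA of the 3 L-GMP, 3 LSK and 4 normal GMP samples used here was hybridised to Affymetrix Mouse Genome 430A 2.0 arrays, with all RNA amplified at the same time, per the labels' protocols. The deposited values are log2 expression estimates of 22690 probe sets, which the authors obtained with GCRMA 2.4.1 from MAS5 files, per the series' design text and the submitters' processing notes, with outlier arrays removed. The lowest value was 1.72 and the highest 14.39, and the medians of the arrays lay between 5.63 and 5.76. Leaving out 64 control probe sets, those over a linear value of 60 on at least 2 arrays of L-GMP or LSK were tested with limma 3.58.1 in R 4.3.3 (lmFit, eBayes), on the 6 arrays alone, and p-values were adjusted by Benjamini-Hochberg and called under 0.05. The level follows the study, whose present calls were not used here.

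The platform annotation gave 1 gene symbol to 20380 probe sets, several to 691 and none to 1555, and the probe set whose mean over the 24 arrays was highest stood for its gene. The genes named are the 12 largest increases and 12 largest decreases whose groups did not overlap, and members of 29 gene lists. The members, lists and comparison were chosen with earlier results of these data known. The fit was tested on simulated data. Promoter windows came from the RefSeq table of GRCm38.p6. The alternatives tried were the filter, the scaling, the test, the samples in the fit, the file name tag, the choice of probe set and leaving out each array. The number of arrays limits the precision.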

Additional observations from a re-analysis of the deposited data

Results flagged for a closer look

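In normal GMP, whose levels stand beside those of L-GMP and LSK, 3 of the 28 genes with printed ranges had 1 of the 4 arrays apart from the others. The gap to the nearest array was 0.885 of the group's range for Elane, 0.852 for Il6ra and 0.891 for Tnnt1, above Dixon's critical value. Chance alone sets about 1 in 20 such groups apart. These arrays entered no test.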

How the results depend on the processing

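The comparison of L-GMP against LSK called 1982 probe sets, and 506 genes higher and 770 lower. The study's Welch test with adjusted p gave 162, 42 and 65 in the same order, a minimum difference of 1 log2 unit (limma's treat) gave 272, 57 and 109, all 24 arrays in the fit gave 3477, 976 and 1214, and array weights gave 7014, 2090 and 2226. Within the arrays that share the file name tag, 3333 probe sets and 1256 lower genes were called, but this sets L-GMP 1 alone against LSK 1 and 2 and assumes that it varies as LSK does, and the arrays without the tag set L-GMP 2 and 3 against LSK 3 alone, so neither shows stability. Leaving out 1 array gave 745 (without LSK 1) to 4436 (without L-GMP 1) probe sets, 195 to 1350 higher genes and 298 to 1353 lower genes. Without L-GMP 1, 1267 of the 1276 genes kept their call. The causes of these changes were not tested. The other filters, scalings, variance settings, the tag as a block, the arrays without the tag and the mean of a gene's probe sets stayed within 1.5 times. Blocking on the replicate number gave 1469 probe sets, 375 higher and 560 lower genes, and the numbers do not pair the samples, with deviations of same-numbered arrays correlated at −0.105, −0.133 and 0.036. Of 133 called genes named above, 85 lost the call in no fit without 1 array, counting as kept those that then left the test. That test held 129 of them without LSK 1 and 131 without LSK 2 or LSK 3. The tag block kept 130 calls and the replicate block 115. Only 51 were kept with treat and 23 with the Welch test with adjusted p. With the mean of a gene's probe sets, Dnmt3a, Ezh1, Hk1, Mvd, Runx1, Samhd1, Sc5d and Stat5b lost it. A direction reversed for Sox4 with array weights (0.42), for Mycn with the mean of its probe sets (−0.26), and within the tagged arrays for Camp (1.49), Ltf (1.47) and Hoxa5 (1.08). Of 34 named genes without a call, 24 changed sign under an alternative, among them S100a9 (1.64) and Atf3 (1.30) within the tagged arrays and Sox4 without L-GMP 1 (0.38), these 3 without a call. With 3 arrays a group, genes near the background level are the least precise.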
